A study of Mus musculus with 2 samples.

Results

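Tbx5 and 5 other members of the T-box family of transcription factors, namely Tbx20, Tbx2, Tbx3, Tbx18 and Tbx15, were followed through RNA sequencing of adult mouse cardiac ventricles, and they are 6 of the 38355 genes of the authors' deposited table. They were chosen by gene symbol, and each symbol had 1 row. The labels name 1 Flox and 1 vTBX5KO sample, both from 16-week-old mice on the C57BL/6 background. Both genotypes carry Tbx5LDN/LDN, and vTBX5KO carries Myh6-MerCreMer in addition, a Cre recombinase driven by a cardiomyocyte promoter and activated by an oestrogen receptor ligand. Both samples were given TX, at 30 mg/kg per day over 3 days at 12 weeks of age, and were collected 4 weeks afterwards. The driver acts in cardiomyocytes, so the other cells of the ventricle keep the gene in vTBX5KO. No source used here says which exons the LDN allele loses, and the deposited values count reads over the whole gene, so they are no check of the deletion.

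The deposited table compares a group B with a group A, and neither the labels nor the file says which letter is Flox and which is vTBX5KO. The genotype was not read from the values, and every direction below is B relative to A. The table gives 1 mean normalized count per gene over all libraries, where the reads of a library are divided by its size factor, a measure of its depth. The means of genes with a single read took 6 step values, each shared by at least 201 genes. These steps gave 6 libraries, 3 of letter A and 3 of letter B, and from them the whole reads of a gene in each library could be solved. Numbers run from the deepest library of a letter down, with size factors of 1.16, 0.80 and 0.61 for A1, A2 and A3 and of 1.56, 1.35 and 0.89 for B1, B2 and B3. No source used here gives total depth, and the recovered reads of 15152 genes summed to between 269266 in A3 and 758099 in B1. The ventricular light chain gene Myl2 was abundant, with an authors' mean normalized count of 165847, against 981 for the atrial light chain Myl7 and 825 for Myl4. Myh6, which is not particular to the ventricle, had 579178. Nothing in the labels says whether libraries of a letter are separate animals, so the spread between libraries that p-values measure may be technical.

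T-box proteins bind DNA through a shared domain, the T-box, and act as activators or repressors of transcription. In the heart, Tbx5 and Tbx20 work with Nkx2-5 and Gata4 to activate genes of working and conducting cardiomyocytes, and loss of one human TBX5 copy causes Holt-Oram syndrome, with limb, septal and conduction defects. Tbx2 and Tbx3 are repressors that keep the working chamber programme off in the atrioventricular canal, outflow tract and conduction system, and they can compete with Tbx5 for the same sites. Tbx18 marks epicardium, the sinus node head, and mural cells of vessels. Tbx15, its close relative, is known from skeleton, skeletal muscle and fat.

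The shared domain is shown here because reads can be split between relatives where their sequences are alike. A coding stretch of 75 bases inside the T-box, which lies in 1 exon of each gene, is printed below from build GRCm38 with the GENCODE M21 models, 5′ to 3′ on the coding strand. It was picked as the stretch of that length in which the other members together shared the most bases with Tbx5. The shares in it are therefore high by choice and do not stand for the whole domain. Capitals mark a base that is the same as in Tbx5 at that position. Tbx5 lies at chr5:119841802-119841876 on the plus strand, Tbx20 at chr9:24765690-24765764 on the minus strand, Tbx2 at chr11:85834789-85834863 on the plus strand, Tbx3 at chr5:119674195-119674269 on the plus strand, Tbx18 at chr9:87724326-87724400 on the minus strand and Tbx15 at chr3:99314817-99314891 on the plus strand.
Tbx5: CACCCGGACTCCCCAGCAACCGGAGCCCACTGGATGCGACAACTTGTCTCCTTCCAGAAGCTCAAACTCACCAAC
Tbx20: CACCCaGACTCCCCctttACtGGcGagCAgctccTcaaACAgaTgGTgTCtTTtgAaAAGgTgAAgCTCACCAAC
Tbx2: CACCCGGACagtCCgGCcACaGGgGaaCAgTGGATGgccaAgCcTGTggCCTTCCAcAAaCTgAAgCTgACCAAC
Tbx3: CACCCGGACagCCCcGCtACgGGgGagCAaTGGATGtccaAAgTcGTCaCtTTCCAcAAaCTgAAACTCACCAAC
Tbx18: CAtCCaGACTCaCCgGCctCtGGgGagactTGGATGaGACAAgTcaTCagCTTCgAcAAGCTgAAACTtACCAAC
Tbx15: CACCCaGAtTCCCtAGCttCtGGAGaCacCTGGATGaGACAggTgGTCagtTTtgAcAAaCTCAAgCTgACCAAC

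Compared with Tbx5, Tbx3 was the most alike in this stretch, with 73.3% of bases shared. Tbx15 shared 70.7%, Tbx2 and Tbx18 each shared 69.3%, and Tbx20 shared 62.7%. Over whole transcripts, the longest run of identical bases between any pair of the 6 genes was 23 bases, between Tbx18 and Tbx15. Tbx5 shared a run of at most 20 bases with any other member, namely with Tbx2 and with Tbx15. A read that lies whole within such a run could come from either gene, and no source used here gives the read length.

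All 6 members were read in the ventricles, and their levels spanned about 2 orders of magnitude per length. Divided by the length of merged exons, the authors' mean normalized count was 341 per kb for Tbx20, 110 for Tbx5, 36.6 for Tbx18, 29.95 for Tbx2, 29.1 for Tbx3 and 2.77 for Tbx15. Tbx5 stood apart from the members below it, since its lowest library, at 47.8 normalized reads per kb in A2, lay above the highest library of Tbx18 (39.8), Tbx2 (44.4) and Tbx3 (40.6). The order of Tbx18, Tbx2 and Tbx3 did not hold beyond their spread. Per kb, Tbx18 was above Tbx2 in 5 of 6 libraries and Tbx2 was above Tbx3 in 3 of 6, and the ranges of these genes overlapped. Tbx15 was lowest in all 6 libraries, between 1.71 and 3.96 normalized reads per kb. Tbx20 has no value per library here, because its mean is too high for its reads to be solved. Exon lengths are those of GENCODE M21. For Tbx5 and Tbx20 the gene span in M21 differs from that in the authors' deposited table, so their levels per kb are approximate.

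**Figure D1:**
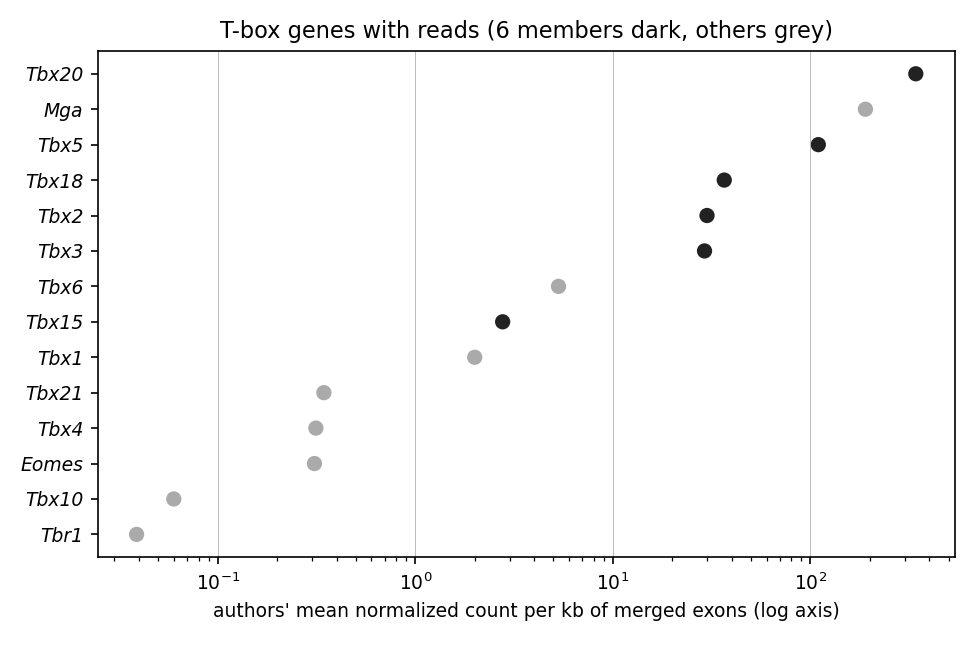
Authors' mean normalized count per kb of merged exons, on a log axis, for the 14 T-box genes with reads; points are means over all libraries and carry no error bar. Tbx20 is highest at 341 per kb, Tbx5 lies at 110, and Tbx18, Tbx2 and Tbx3 lie together between 29.1 and 36.6.

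Of 17 T-box genes in the table, 6 had an adjusted p, namely 5 members and Mga, and none was called at an adjusted p under 0.05. A call was made for 3.98% of all 13230 tested genes, so a count of 0 among 6 cannot be read as a difference from the rest. Before adjustment, with the authors' p-values recovered from the adjusted ones, Tbx5 alone was under 0.05. In the authors' deposited table all 6 had a positive log2 fold change, as did 6606 of all 13230 tested genes. Apart from Tbx5, their values lay between 0.05 and 0.23. Whether the family moved as a whole was not tested. The fold change there is shrunken towards 0, so it can understate ratios of group means. Tbx15 had too few reads for an adjusted p, since the lowest tested mean was 16.0.

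Tbx5 (ENSMUSG00000018263, chr5:119834663-119885218 on the plus strand) is the gene that the study targets. It had 274 normalized reads in A1, 224 in A2 and 390 in A3, against 1160 in B1, 677 in B2 and 350 in B3. B1 and B2 were above every A library, while B3 was below A3, so the letters overlapped. These values rest on 317, 178 and 237 whole reads in the A libraries and on 1815, 916 and 312 in the B libraries. The mean was 296 ± 85.5 in A and 729 ± 407 in B (SD, n = 3 each), a ratio of 2.46. The spread between B libraries was thus of the same order as the difference between letters.

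On the log2(normalized reads + 1) scale the difference of means for Tbx5 was 1.17 ± 0.55 (SE), and an exact permutation test over 3 against 3 libraries, two-sided, gave p = 0.2. The smallest p this design allows is 0.1. The authors' deposited table gives Tbx5 a log2 fold change of 0.92 and an adjusted p of 0.0575, from which a standard error of 0.30 was recovered. Tbx5 would pass at a threshold of 0.1, which 5.91% of all tested genes do. In a limma-voom fit over the 5104 genes with recovered reads and a mean of at least 16, the log2 fold change of Tbx5 was 1.20 ± 0.40 (SE), and its adjusted p was 0.261 and its unadjusted p 0.0143. That limma-voom fit called 22 genes, or 0.431%.

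The size of the Tbx5 difference depended on single libraries. The ratio of B to A was 1.73 without B1 and 3.10 without B3, and between 2.19 and 2.93 when any 1 of the other libraries was left out. In limma-voom, Tbx5 was called without B3, with an adjusted p of 0.0115, and with no filter on low means, with an adjusted p of 0.025. Its adjusted p lay between 0.192 and 0.653 when any other library was left out. B1 is the deepest library. With library sizes taken from the summed recovered reads, the factor of B1 was 1.69 in place of 1.56 and the log2 difference of Tbx5 was 1.09.

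**Figure D2:**
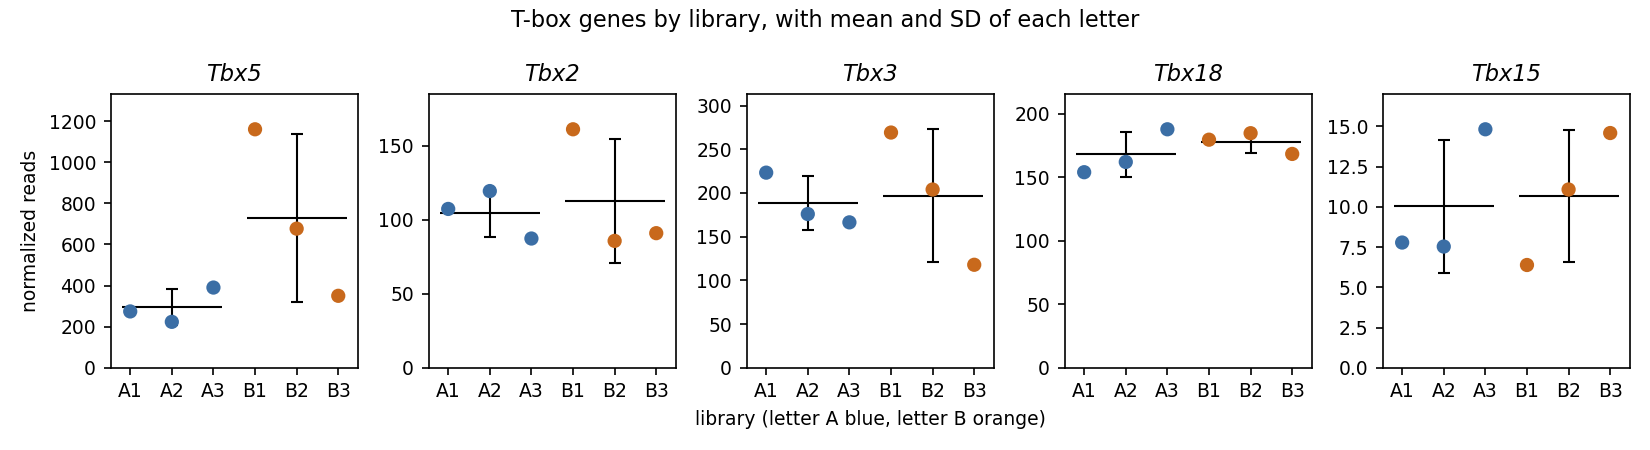
Normalized reads of the 5 members with recovered reads in each of 6 libraries; points are libraries, horizontal bars are means and vertical bars are SDs of the 3 libraries of a letter, and each panel has its own axis from 0. Tbx5 reaches 1160 in B1 and 677 in B2 while B3 (350) lies below A3 (390), and the letters overlap in all 5 panels.

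The neighbourhood of Tbx5 was read alongside it. Rbm19, the next gene with more than a few reads and 231 kb away on the side of higher coordinates, had 212, 259 and 231 normalized reads in A1 to A3 and 254, 228 and 184 in B1 to B3. Its letters overlapped, and the authors' deposited table gives it a log2 fold change of -0.06 with an adjusted p of 0.943. On the other side lies Tbx3, itself a member, with the transcript Gm16065 between them at a mean of 0.11.

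Tbx20 (ENSMUSG00000031965, chr9:24720812-24774303 on the minus strand) was the highest T-box gene, with an authors' mean normalized count of 4096. It is needed in cardiomyocytes of the adult mouse heart for normal function. The authors' deposited table gives it a log2 fold change of 0.23 and an adjusted p of 0.665, with a recovered standard error of 0.19. The group means that this mean, fold change and standard error imply were 3736 in A and 4456 in B, a ratio of 1.19. The implied log2 ratios of 354 genes lay within 0.0279 of the ratios from their solved reads, with a median distance of 0.00792. Those reads had themselves been chosen to return the deposited fold change at the recovered standard error, so this closeness was largely built in. Their means were also under 600, so a mean as high as that of Tbx20 was not covered. The difference of Tbx20 was of the order of its standard error and did not pass the test. The nearest gene, Dpy19l2, lies 24.5 kb away and had a mean of 1.73.

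The repressors Tbx2 and Tbx3 showed no difference between letters beyond the spread. Tbx2 (ENSMUSG00000000093, chr11:85832551-85841948 on the plus strand) had 107, 119 and 87.3 normalized reads in A1 to A3 and 161, 85.7 and 90.9 in B1 to B3. B1 was the highest of the 6 and B2 the lowest, so the letters overlapped. The mean was 105 ± 16.2 in A and 113 ± 42.1 in B (SD, n = 3 each), and the exact permutation test, two-sided, gave p = 0.9. The log2 difference was 0.06 ± 0.32 (SE), and its sign turned to -0.02 with library sizes from summed reads and to -0.23 without B1. The authors' deposited table gives Tbx2 a log2 fold change of 0.09 with an adjusted p of 0.944.

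Tbx3 (ENSMUSG00000018604, chr5:119670669-119684724 on the plus strand) had 223, 176 and 166 normalized reads in A1 to A3 and 269, 204 and 118 in B1 to B3. The B libraries held both the highest and the lowest value, and enclosed all A libraries. The mean was 188 ± 30.4 in A and 197 ± 75.8 in B (SD, n = 3 each), and the exact permutation test, two-sided, gave p = 1. The log2 difference of means was -0.0043 ± 0.37 (SE), while the log2 fold change in the authors' deposited table was 0.05 with an adjusted p of 0.966, so the sign differs between these measures. It also turned when single libraries were left out, from -0.27 without B1 to 0.32 without B3. Tbx5, Tbx2 and Tbx3 each had their highest value in B1.

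Other genes of the Tbx2 and Tbx3 loci had few reads. Tbx4, a limb and lung factor 44.5 kb from Tbx2, had 2, 0 and 0 whole reads in A1 to A3 and 5, 2 and 0 in B1 to B3. 2610027K06Rik starts 0.3 kb from Tbx2 on the opposite strand and had a mean of 4.59. Gm2301 overlaps Tbx3 on the opposite strand, with between 1.65 and 5.91 normalized reads per library, and no source used here says whether the kit kept strand. Reads of such a pair cannot be told apart without strand, and the reads of Gm2301 amount to few beside those of Tbx3.

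Tbx18 (ENSMUSG00000032419, chr9:87702800-87731260 on the minus strand) varied least between libraries among the 5 members with recovered reads. It had 154, 162 and 188 normalized reads in A1 to A3 and 180, 185 and 168 in B1 to B3. The highest value was in A3 and the letters overlapped. The mean was 168 ± 17.6 in A and 178 ± 8.36 in B (SD, n = 3 each), and the exact permutation test, two-sided, gave p = 0.5. Over all 6 libraries the coefficient of variation of Tbx18 was 7.77%, against 26.6% for Tbx2, 26.9% for Tbx3, 35.8% for Tbx15 and 69.1% for Tbx5. The authors' deposited table gives Tbx18 a log2 fold change of 0.09 with an adjusted p of 0.889. The dispersion behind the authors' test, recovered from the fold change and p, ranked Tbx18, Tbx2, Tbx3 and Tbx5 in the same order, with 0.0122 for Tbx18, 0.0301 for Tbx20, 0.0605 for Tbx2, 0.0696 for Tbx3 and 0.13 for Tbx5.

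Tbx15 (ENSMUSG00000027868, chr3:99240381-99354259 on the plus strand) was read at a low level, with 9, 6 and 9 whole reads in A1 to A3 and 10, 15 and 13 in B1 to B3. These are 7.79, 7.54 and 14.8 normalized reads in the A libraries and 6.39, 11.1 and 14.6 in the B libraries. A3 and B3, the shallowest library of each letter, were highest. The mean was 10.1 ± 4.14 in A and 10.7 ± 4.11 in B (SD, n = 3 each), and the exact permutation test, two-sided, gave p = 1. Wars2, which encodes a mitochondrial tryptophanyl-tRNA synthetase and ends 1.2 kb before Tbx15, had between 264 and 293 normalized reads in all 6 libraries.

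None of the 5 members with recovered reads separated the letters. Among the 5104 genes with recovered reads and a mean of at least 16, a set that leaves out Tbx15, 19.7% did so. A count of 0 is thus no sign of a difference from other genes. In limma-voom the adjusted p was 0.927 for Tbx2, 0.968 for Tbx3 and 0.804 for Tbx18, and Tbx15 was under the minimum mean of that fit.

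Of the 11 T-box genes outside the members, Mga was the only one that was tested. Mga, which joins a T-box to a domain that pairs with Max, had an authors' mean normalized count of 2911 and 190 per kb. Its log2 fold change in the authors' deposited table was 0.22 with an adjusted p of 0.517, and the implied group means were 2676 in A and 3147 in B. As for Tbx20, the check of implied means did not cover a mean this high. Tbx6, a factor of paraxial mesoderm, had 11.2, 11.3 and 3.29 normalized reads in A1 to A3 and 13.4, 12.6 and 5.61 in B1 to B3. Tbx1, known from the pharyngeal arches, lay between 4.43 and 13.8 per library. In both genes the letters overlapped. Tbx21, Eomes, Tbx10 and Tbr1, like Tbx4, had means between 0.11 and 1.28. T, Tbx19 and Tbx22 had no reads in any library. Finding none still allows an expected count of up to 3 in a library.

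In bulk tissue, fewer cells of a type and less RNA per cell cannot be told apart. Markers of cell types in which the members are known were therefore read beside them. For the conduction system, in which Tbx3 and Tbx5 act, all 13 listed markers had recovered reads and none had a pooled mean of 0, and their summed normalized reads were 1614, 1523 and 1731 in A1 to A3 and 1476, 1213 and 1035 in B1 to B3. All B libraries were below all A libraries in this sum. The separation rested on 1 gene, Cacna1g, since without it the sums of the other 12 were 1279, 1155 and 1389 in A1 to A3 and 1283, 1096 and 963 in B1 to B3, and B1 was above A1 and A2. Cacna1g was the only one of 11 tested markers that was called, where 2.49% of all tested genes were called lower. It is the T-type calcium channel gene, which had 335, 368 and 343 normalized reads in A1 to A3 and 192, 117 and 71.8 in B1 to B3, and for which the authors' deposited table gives a log2 fold change of -1.15 (adjusted p = 0.00169). Tbx3 was lowest in the library with the lowest sum, B3, but highest in B1. The log2 fold change was negative for 7 of the 11 tested markers and positive for 4. The pacemaker channel gene Hcn4 was likewise lowest in B3, at 31.4 normalized reads, against 141 in A1. Etv1, a factor of fast-conducting myocardium in the mouse, went the other way, with 74.4, 77.9 and 54.4 normalized reads in A1 to A3 and 112, 121 and 87.6 in B1 to B3, and Shox2, a sinus node factor, was highest in B3 at 40.4. Neither passed the authors' test. Irx3 and Gja5 were also lower in every B library than in every A library, while Etv1 was higher in every B library. In the authors' test neither Irx3 (adjusted p = 0.171) nor Gja5 (adjusted p = 0.185) passed. Among the 5104 genes with recovered reads and a mean of at least 16, 19.7% separated the letters in either direction.

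Some atrial markers were uneven between libraries. Sln, an atrial inhibitor of the calcium pump in the mouse, had 9.52, 64.1 and 664 normalized reads in A1 to A3 and 109, 66.5 and 285 in B1 to B3. Bmp10, a growth factor of atrial muscle in the adult mouse, was at 0 in A1 and A2 and reached 72.5 in A3. Nr2f1 did not share this pattern, with 25.1, 36.4 and 31.3 normalized reads in A1 to A3 and 46.7, 27.3 and 33.7 in B1 to B3. The 4 of 11 atrial markers with recovered reads summed to between 316 and 435 in A1, A2, B1 and B2. They summed to 1338 in A3 and to 613 in B3, and Sln and Stard10 made up most of each sum. Of 10 tested atrial markers, 1 was called, lower in B, namely the muscarinic receptor gene Chrm2, with a log2 fold change of -1.33 (adjusted p = 1.04e-12) in the authors' deposited table. The share called lower over all tested genes was 2.49%. Atria are rich in Tbx5, and A3 was the highest A library of Tbx5 while B3 was the lowest B library. B1, the highest library of Tbx5, was not among the high ones for the atrial sum, though Nr2f1 was highest there. The part of atrial tissue in the values of Tbx5 was not tested.

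**Figure D3:**
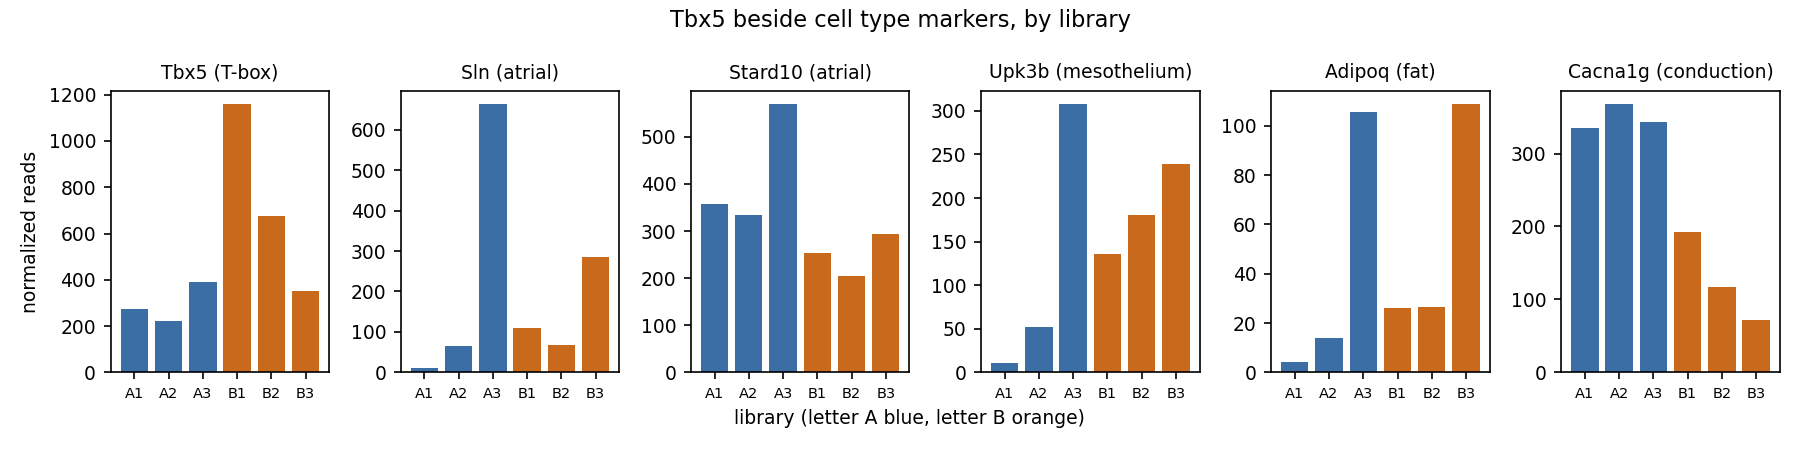
Normalized reads of Tbx5 and of 5 cell type markers in each of 6 libraries, with bars from 0 and an axis for each panel; the 5 markers were picked after their values were seen. A3 is highest for Sln, Stard10 and Upk3b, B1 is highest for Tbx5 at 1160, and all B libraries lie below all A libraries for Cacna1g.

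Markers of epicardium and mesothelium, where Tbx18 is known, also varied. All 8 had recovered reads, none at 0, and they summed to 177, 278 and 870 in A1 to A3 and to 487, 591 and 688 in B1 to B3. None of the 7 tested was called. All listed markers but Wt1 were highest in A3 of the 6 libraries, and higher in B3 than in B1. The mesothelial gene Upk3b had 10.4, 51.5 and 308 normalized reads in A1 to A3. Msln had 6.06, 52.8 and 147 there, and Lrrn4 4.33, 20.1 and 104. Aldh1a2, a retinoic acid enzyme gene, varied less, with 64.9, 52.8 and 119 in A1 to A3. The epicardial factor gene Wt1 went the other way. It had 81.3, 81.7 and 67.5 in A1 to A3 and 102, 76.1 and 58.4 in B1 to B3. Tbx18 lay between 154 in A1 and 188 in A3. For pericytes and smooth muscle, which also carry Tbx18, none of the 9 markers had recovered reads. One of these 9 was called, where 2.49% of all tested genes were called lower. It was the potassium channel subunit gene Abcc9, for which the authors' deposited table gives a log2 fold change of -0.65 (adjusted p = 0.00144). The median log2 fold change of the 9 was 0.14. Of 7 fibroblast markers, 1 was called, where 1.5% of all tested genes were called higher. It was the matrix gene Mfap5, with 276, 270 and 273 normalized reads in A1 to A3 and 357, 375 and 414 in B1 to B3, and the authors' deposited table gives it a log2 fold change of 0.46 (adjusted p = 0.012). All B libraries were above all A libraries for Mfap5. Over the 5104 genes with recovered reads and a mean of at least 16, 19.7% separated the letters in either direction. None of the 8 genes listed for ventricular cardiomyocytes, not all particular to the ventricle, and none of the 5 endothelial markers was called. Myl2 came closest among these, with a log2 fold change of -0.70 (adjusted p = 0.0572) in the authors' deposited table.

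For Tbx15, markers of fat and skeletal muscle were read. The 6 fat markers, none at 0, summed to 549, 552 and 957 in A1 to A3 and to 577, 654 and 1164 in B1 to B3, so that A3 and B3 were highest, as they were for Tbx15. Cidea made up the larger part of each sum, with 529, 504 and 493 normalized reads in A1 to A3 and 415, 543 and 645 in B1 to B3. Among the A libraries Cidea was lowest in A3, so it did not share the pattern of the sum there. The fat hormone gene Adipoq had 105 normalized reads in A3 and 109 in B3, against 4.33 to 26.6 in the other libraries. Skeletal muscle markers summed to 250 in A3 and 149 in B3, against 254 to 294 in the other libraries, over 7 of 8 genes, with Pax7 at 0. Myh2 alone made up 191 of the skeletal muscle sum in A3 and 103 of that in B3. The part of fat tissue in the values of Tbx15 was not tested.

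Partners and co-regulators of T-box factors came from a list of 30 genes, of which 27 were tested, 0 were called higher and 1 was called lower in B. The shares over all tested genes are 1.5% higher and 2.49% lower. The called gene was Smarcd3, which encodes the Baf60c subunit of the chromatin remodelling complex that works with Tbx5 and Gata4 in heart development, and the authors' deposited table gives it a log2 fold change of -0.35 (adjusted p = 0.0299). The median log2 fold change of the list was -0.00, as over all tested genes. The 4 next smallest adjusted p values in the authors' deposited table did not pass the test. Srf, the serum response factor, had a log2 fold change of -0.45 (adjusted p = 0.067), and Pdlim7, which binds Tbx5 and can hold it in the cytoplasm, had -0.40 (adjusted p = 0.127). Tead1, a factor of muscle genes, had 0.59 (adjusted p = 0.263), and Ep300, a histone acetyltransferase, had 0.57 (adjusted p = 0.325).

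Nkx2-5, the homeobox partner of Tbx5, was read at 460, 396 and 600 normalized reads in A1 to A3 and at 459, 267 and 203 in B1 to B3. B1 was at the level of A1, so the letters overlapped, and the authors' deposited table gives an adjusted p of 0.353. Gata4 had a log2 fold change of 0.04 and an adjusted p of 0.974 there.

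Known targets of Tbx5 were read from a list in the same way. Of 19 listed genes, which include Tbx3, 14 were tested, 0 were called higher and 2 were called lower in B, where 2.49% of all tested genes were called lower. The median log2 fold change over the 14 was -0.12. The list was drawn up with results of these data known, so this count is a description. Gja1, which encodes connexin 43 of ventricular gap junctions, had a log2 fold change of -2.23 (adjusted p = 1.60e-29) in the authors' deposited table. Its implied means were 9155 in A and 1691 in B. Nppb, a natriuretic peptide gene, had -1.15 (adjusted p = 0.0137) in the authors' deposited table. Its implied means were 2474 and 716.

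Other targets with small adjusted p values in the authors' deposited table did not pass. Ryr2, the calcium release channel gene, had a log2 fold change of -0.71 (adjusted p = 0.0671), and Atp2a2, the calcium pump gene, had -0.49 (adjusted p = 0.167). Gja5, which encodes connexin 40 of atria and fast-conducting bundles, had -0.56 (adjusted p = 0.185), and Kcnj3, an atrial potassium channel gene, had -0.26 (adjusted p = 0.391). By library, Gja5 had 151, 132 and 244 normalized reads in A1 to A3 and 107, 100 and 125 in B1 to B3. All B libraries were below all A libraries for Gja5. The letters separated, in either direction, for 19.7% of the 5104 genes with recovered reads and a mean of at least 16. A3, the library with the most Sln, was highest for Gja5. Gja5 also stands in the list of conduction markers. The called targets and Tbx5 had log2 fold changes of opposite sign in this comparison.

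**Figure D4:**
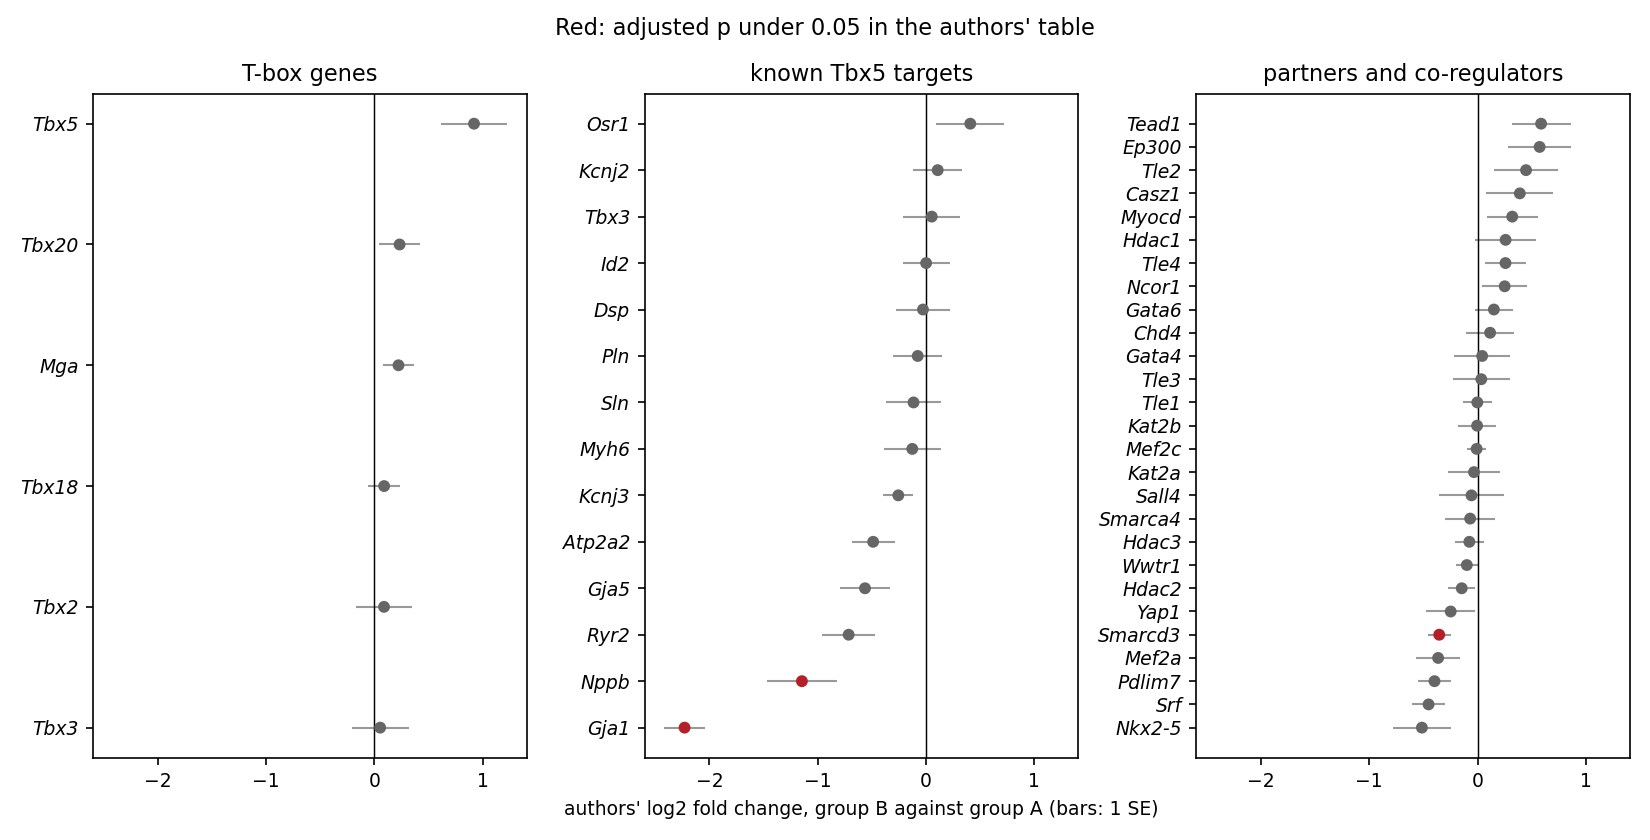
Authors' log2 fold change of group B against group A for the 6 tested T-box genes, 14 tested targets of Tbx5 and 27 tested partners; horizontal bars are 1 standard error recovered from the adjusted p, and red points have an adjusted p under 0.05. Tbx5 lies at 0.92 with the other T-box genes between 0.05 and 0.23, and Gja1, Nppb and Smarcd3 are the red points, all below 0.

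The genes whose pattern over the 6 libraries came closest to each member were taken from 3355 genes with a mean from 16 to 100, by the root mean square difference of centred log2 values. For Tbx5 these were ENSMUSG00000086084 (0.237), the neuronal adhesion gene Astn1 (0.246) and AI504432 (0.247). Astn1 had 21.6, 17.6 and 31.3 normalized reads in A1 to A3 and 60.1, 47.3 and 29.2 in B1 to B3, that is, with B3 below A3 as in Tbx5. For Tbx2 they were Anks6 (0.078), Spata5l1 (0.086) and Zfp618 (0.109), and for Tbx3 Gm6733 (0.049), Klf12 (0.052) and Abcc10 (0.104). For Tbx18 they were Chst11 (0.041), Cbr3 (0.059) and Prr15 (0.064), and for Tbx15 Pak3 (0.058), Gm13651 (0.089) and Zfp185 (0.130). The distance grows with a member's own spread between libraries, so distances of different members are not compared, and all of them share the same libraries and size factors.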

How the data were processed

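The only file was the table of B against A that the authors deposited. Tools included Bowtie2 2.0 and DESeq2, with build mm9, per the submitters' processing notes. The identical chromosome, start and end in GENCODE M21 for 25481 of 36602 matched genes (69.6%) led to the coordinates being given as GRCm38. Per the file headers, the deposited values are a mean normalized count (a signal pooled over both letters), a log2 fold change, and the adjusted p-value from the authors' test, all used as deposited. The planned edgeR test needs counts per sample and was not used. The members, lists and rules were chosen with earlier results of these data known. One gene of the target list is not reported here and is left out of its counts.

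Whole reads per library were solved as the whole numbers whose steps add up to the pooled mean. For means under 100 this left 1 set for 13392 of 13403 genes (99.9%). For larger means (up to 200 for all tested genes, up to 600 for listed genes) the set also had to return the deposited log2 fold change within 2e-06 in a negative binomial fit with a normal prior, of width 0.668 on the log2 scale, at the standard error recovered from the deposited p. This held for 652 of 653 genes of known reads (99.8%). On 150 such genes whose means were rounded until a median of 11906 candidate sets remained, 138 had 1 set left and all 138 sets were right. With shared p-values and a median of 115 candidates, 145 of 150 had 1 set left and all 145 were right. For the larger means, that of Tbx5 among them, the search left out sets very uneven between libraries. Sets with a ratio of B to A far from the deposited fold change were left out for all genes solved by the fit. Within these limits Tbx5 had 17844 candidates and 1 solution. Its fit returned the fold change within 3.41e-10, against 3.87e-05 for the next set. Tbx3 had 140 candidates, Tbx18 had 86 and Tbx2 had 10, each with 1 solution. Group means of Tbx20, Mga, Gja1 and Nppb were implied from mean, fold change and standard error.

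Libraries were compared by exact permutation tests on log2(normalized reads + 1), and by limma-voom (limma 3.58.1, R 4.3.3) with Benjamini-Hochberg adjustment. Scripts used Python 3.11.15, numpy 2.4.6 and scipy 1.17.1 and were tested on simulated data. Beside the members and the other T-box genes, the text names genes next to a member, called genes of the partner and target lists with up to 4 others of smallest adjusted p in each, and the 3 closest patterns. Nkx2-5, Gata4 and the named markers were picked after their values were seen, apart from called markers, which are all named. The alternatives tried were other thresholds, pseudocounts, library sizes, low-mean filters and leaving out each library.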

Additional observations from a re-analysis of the deposited data

How the results depend on the processing

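For Tbx5 and Tbx18 the log2 difference between letters kept its direction in all 10 alternatives, and no member's exact permutation p fell under 0.05, which 3 against 3 libraries cannot reach. Leaving out 1 library gave 0.75 (without B1) to 1.62 (without B3) for Tbx5 and 0.02 to 0.17 for Tbx18. The sign of Tbx2 (0.06) turned to -0.022 with library sizes from summed reads and to -0.013 with median-of-ratios factors, and it ran from -0.23 to 0.22 when 1 library was left out. Over the same omissions Tbx3 (-0.0043) ran from -0.27 to 0.32 and Tbx15 (0.08) from -0.16 to 0.37. With a threshold of 0.1 in place of 0.05, 1 T-box gene passed in the authors' deposited table, namely Tbx5. The number of genes called by limma-voom, 22, was 117 with no filter on the mean, and with 1 library left out it ran from 3 to 201 (201 without B3, 66 without B1, 7 without A3, 4 without A1, 4 without A2 and 3 without B2). It was 27 with sizes from summed reads, and 20 with genes solved from the mean alone, an alternative chosen after seeing the data. In the same fit the log2 fold change of Tbx5 was 1.20 with no filter, where it was called, and 0.82 to 1.64 with 1 library left out, where it was called without B3. With summed reads that of Tbx2 turned to -0.00093 and that of Tbx3 to -0.044, and with 1 library left out they ran from -0.26 to 0.28 and from -0.24 to 0.30. The cause of these changes was not tested. No paired analysis was possible because the recovered libraries carry no replicate number from the labels. Reads per library are limited to genes of low or middle mean, Tbx20 has no replicate values here, and Tbx15 rests on 6 to 15 reads a library. No source used here gives the genotype of a letter.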
